A study of Rattus norvegicus with 10 samples.

Results

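Ubiquitin-conjugating enzymes and ubiquitin-specific proteases were examined in round spermatids, which have completed meiosis and not yet begun to elongate into sperm. The members are the protein-coding genes of the deposited files whose symbol begins with Ube2 and a letter or with Usp and a digit, 84 of the 32545 genes listed: 35 Ube2 genes and 49 Usp genes. Round spermatids came from wild-type Brown Norway rats aged 18 to 20 months (aged, 5 samples) and from wild-type rats of the same strain aged 4 to 6 months (young, 5 samples). Both groups were kept under normal conditions with free access to food and water, and the spermatids were isolated by STA-PUT, a separation of testis cells by sedimentation speed that can leave some other cells behind. Separate animals are not stated for the samples, so each p-value measures only the spread among these libraries, which may be technical.

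Ubiquitin is a small protein that cells attach to other proteins. An activating enzyme (E1) charges it, a conjugating enzyme (E2, most of them named Ube2) carries it, and a ligase (E3) directs it to its target, while deubiquitinases such as the Usp cysteine proteases take it off again. Some Ube2 enzymes carry a related modifier instead, as Ube2m and Ube2f carry NEDD8. In the testis the pathway is known for marking histones before protamines replace them and for clearing organelles and proteins as the spermatid is remodelled.

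The values are FPKM, fragments scaled to gene length and to sequencing depth, so levels of different genes can be set side by side. Recovered depth was 15992576 to 18203223 fragments in the aged libraries and 14488222 to 17401744 in the young libraries. The round spermatid markers summed to 2063 to 2321 FPKM in the aged libraries and 1984 to 2399 FPKM in the young libraries, and all 10 were detected, among them Acrv1 and Crem. Of the 10, 8 were fitted higher in aged libraries, with a median log2 difference of 0.09, beside 45.5% of all genes tested. At an unadjusted p under 0.05 by limma there was 1 of the 10, against 11.9% of all genes tested. No marker of another testis cell passed an adjusted p of 0.05 by limma, but several lists were fitted mostly to one side: the 12 macrophage markers summed to 39.2 to 393 FPKM in aged and 19.8 to 50.8 FPKM in young libraries, and the 7 Leydig cell markers to 10.8 to 120.2 FPKM in aged and 5.13 to 8.28 FPKM in young libraries. Aged replicate 2 was the highest in both lists and aged replicate 1 the next. In aged replicate 2, Apoe alone held 280 FPKM of the macrophage sum and Insl3 86.4 FPKM of the Leydig cell sum. Of the 11 tested macrophage markers, 10 were fitted higher in aged libraries. The other, Adgre1, was lower, at 5.80 ± 0.672 FPKM in aged and 7.16 ± 0.884 FPKM in young libraries (SD, n = 5 each). The 12 peritubular markers summed to 98.7 to 265 FPKM in aged and 61.5 to 94.5 FPKM in young libraries, and the 11 Sertoli cell markers to 35.8 to 139 FPKM in aged and 28.6 to 37.5 FPKM in young libraries. Spermatocyte markers leaned the other way, summing to 277 to 357 FPKM in aged and 321 to 384 FPKM in young libraries. All 10 late spermatid markers were also fitted lower in aged libraries, with a median log2 difference of -0.12 and sums of 31022 to 39824 FPKM in aged and 31105 to 49845 FPKM in young libraries. Young replicate 5, highest in that sum, was also highest in the round spermatid sum and in the FPKM summed over all genes (580840). It was the highest library for 13 of the 73 tested members (17.8%, against 10.9% of all genes tested), among them Ube2n, Ube2j1, Usp50 and Usp12. Young replicate 1, next in the late spermatid sum, was the lowest library for Usp50. The part of these cells in the differences given for single members was not tested, and fewer cells of a type cannot be told apart from less RNA per cell.

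Both families were well represented and their total did not differ with age by more than the spread between libraries. The Ube2 genes together made up 0.485 ± 0.0156% of all FPKM in aged and 0.484 ± 0.00647% in young libraries (SD, n = 5 each), and the Usp genes 0.368 ± 0.00754% in aged and 0.369 ± 0.00843% in young libraries. A few genes carried most of each total: the 8 most abundant Ube2 genes held 72.1 to 74.0% of the Ube2 FPKM in aged and 72.8 to 74.2% in young libraries, and the 8 most abundant Usp genes 67.9 to 68.6% of the Usp FPKM in aged and 67.6 to 69.4% in young libraries. A mean of at least 1 FPKM over the 10 libraries, the limit for testing, was reached by 73 members, 31 Ube2 and 42 Usp genes. The median level of these tested members was 37.3 FPKM for Ube2 and 16.02 FPKM for Usp genes, against 8.10 FPKM for all 12985 genes tested. Unlike the members, the 12985 genes were not limited to protein-coding genes.

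**Figure D1:**
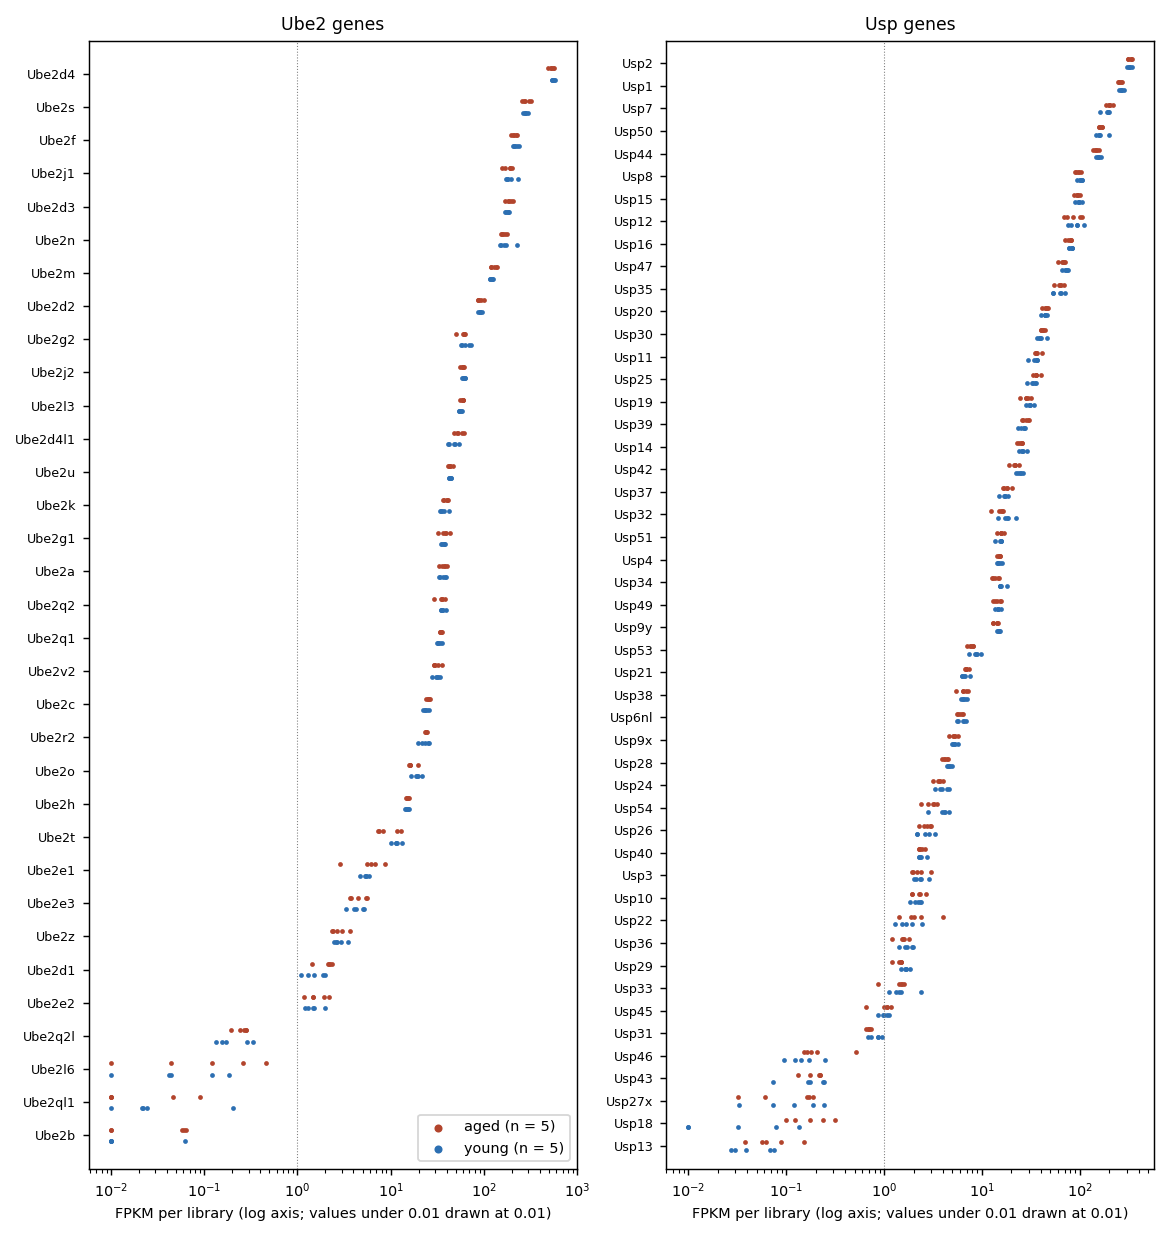
Level of 82 members in FPKM on a log axis, with Ube2 genes on the left and Usp genes on the right, each ordered by its mean. Points are single libraries, 5 aged (red, upper row of each gene) and 5 young (blue, lower row), and the dotted line marks 1 FPKM. Ube2d4 and Usp2 head the families, 71 of the genes drawn have a mean to the right of the line, and the aged and young points of most genes cover much of the same range. Values under 0.01 FPKM are drawn at 0.01.

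The sequences of 5 promoters are given here because they belong to 4 of the most abundant members and to Usp34, the member whose aged and young values did not overlap. They are RefSeq sequences of build GRCr8, from 250 bases before to 50 bases after the annotated start, written 5′ to 3′ on the gene's strand. Capitals mark every CRE core (TGACGT or its reverse complement), the first 6 letters of the full CRE, a site bound by the spermatid activator CREM, and every GC box (GGGCGG or its reverse complement).
Usp2 (chr8:53310620-53310919, plus strand): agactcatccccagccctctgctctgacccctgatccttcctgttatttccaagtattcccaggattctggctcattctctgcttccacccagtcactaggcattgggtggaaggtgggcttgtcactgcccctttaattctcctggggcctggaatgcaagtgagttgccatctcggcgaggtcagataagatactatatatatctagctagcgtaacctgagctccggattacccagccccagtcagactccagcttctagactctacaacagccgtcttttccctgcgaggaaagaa
Usp1 (chr5:118702806-118703105, plus strand): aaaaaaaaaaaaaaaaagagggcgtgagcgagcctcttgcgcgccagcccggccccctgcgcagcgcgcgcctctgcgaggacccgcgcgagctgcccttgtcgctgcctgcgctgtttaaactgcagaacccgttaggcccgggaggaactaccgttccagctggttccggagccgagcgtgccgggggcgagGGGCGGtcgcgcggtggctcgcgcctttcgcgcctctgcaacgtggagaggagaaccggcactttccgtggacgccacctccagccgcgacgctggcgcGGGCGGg
Ube2s (chr1:78057409-78057708, plus strand): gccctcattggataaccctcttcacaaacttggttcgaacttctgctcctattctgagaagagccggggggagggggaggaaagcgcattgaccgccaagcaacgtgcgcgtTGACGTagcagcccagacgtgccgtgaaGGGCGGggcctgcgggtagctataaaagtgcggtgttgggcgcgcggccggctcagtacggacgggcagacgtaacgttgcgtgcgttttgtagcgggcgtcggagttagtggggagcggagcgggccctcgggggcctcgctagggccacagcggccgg
Ube2j1 (chr5:52218557-52218856, plus strand): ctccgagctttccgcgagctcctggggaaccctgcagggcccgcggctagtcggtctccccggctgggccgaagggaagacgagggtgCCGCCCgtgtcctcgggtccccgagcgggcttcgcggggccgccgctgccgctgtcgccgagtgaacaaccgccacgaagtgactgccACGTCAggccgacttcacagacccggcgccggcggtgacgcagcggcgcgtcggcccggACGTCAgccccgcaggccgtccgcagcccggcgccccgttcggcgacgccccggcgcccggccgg
Usp34 (chr14:101486903-101487202, plus strand): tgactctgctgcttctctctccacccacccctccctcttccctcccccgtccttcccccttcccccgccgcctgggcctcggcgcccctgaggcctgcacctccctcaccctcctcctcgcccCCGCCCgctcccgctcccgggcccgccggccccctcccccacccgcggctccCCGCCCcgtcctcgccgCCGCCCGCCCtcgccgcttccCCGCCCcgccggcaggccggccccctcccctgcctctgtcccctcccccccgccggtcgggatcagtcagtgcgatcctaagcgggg

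Of the 83 different member symbols, 67 had a RefSeq promoter, 72 sequences in all since some symbols have more than 1. The full CRE (TGACGTCA) was in none of the 72 and in 2.10% of the 21851 promoters of protein-coding genes. The CRE core was in 8 of the 72 (11.1%, against 8.78% of all promoters), on either strand, those of Ube2b, Ube2d2, Ube2g2, Ube2j1, Ube2s, Usp8, Usp22 and Usp38. These genes ranged from Ube2s at 283 FPKM to Usp22 at 2.06 FPKM, leaving out Ube2b, whose level cannot be read. The GC box was in 46 of the 72 (63.9%, against 41.8% of all promoters), and the median GC content was 64.5% against 55.0%. The box was in 16 of the 33 promoters counted for members of at least 30 FPKM and in 30 of the other 39. Usp2 stood apart among the sequences shown, with 51.7% GC and neither motif, while Usp34 had 79.0% GC and Usp1 68.7% GC. A match says that the letters are present in the window and nothing about binding.

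The most abundant member was Ube2d4, a conjugating enzyme of the Ube2d family, which works with many ligases and builds short chains on their targets. Its 5 aged libraries stood at 485, 524, 561, 528 and 549 FPKM and its 5 young libraries at 533, 562, 538, 580.0 and 558 FPKM. It was 108th of 22293 protein-coding genes, and its lowest library lay above the highest of any other member. The files place it on chromosome 14 from 2933100 to 2934571 on the minus strand as a single exon of 1472 bp, inside the bounds of Evi5 on the opposite strand (1.37 FPKM). Ube2d4l1, a gene of the same family on chromosome X and also a single exon (450 bp), averaged 54.4 ± 5.62 FPKM in aged and 46.9 ± 5.24 FPKM in young libraries (SD, n = 5 each). The other Ube2d genes were Ube2d3 at 187 ± 13.7 FPKM in aged and 178 ± 7.16 FPKM in young libraries, Ube2d2 at 91.0 ± 5.76 FPKM in aged and 91.2 ± 3.26 FPKM in young libraries, and Ube2d1 at 2.07 ± 0.362 FPKM in aged and 1.57 ± 0.385 FPKM in young libraries. Near-identical coding sequences in this family may divide or lose shared fragments, so the order among its members is uncertain.

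Ube2s, which extends ubiquitin chains for the anaphase-promoting complex, was the next Ube2 gene, at 286 ± 27.9 FPKM in aged and 280 ± 11.5 FPKM in young libraries (SD, n = 5 each). Ube2c, the enzyme that starts those chains, was far lower, at 23.8 to 26.6 FPKM in aged and 22.2 to 26.1 FPKM in young libraries. Both NEDD8 enzymes were abundant: Ube2f averaged 212 ± 12.1 FPKM in aged and 218 ± 12.6 FPKM in young libraries, and Ube2m 129 ± 8.79 FPKM in aged and 121 ± 3.39 FPKM in young libraries. The lowest Ube2s library lay above the highest Ube2f library, and the lowest Ube2f library above the highest Ube2m library.

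Enzymes of membranes and of lysine-63 chains followed. Ube2j1, a membrane-anchored enzyme of protein quality control at the endoplasmic reticulum that mouse spermatids need, averaged 182 ± 17.9 FPKM in aged and 191 ± 23.1 FPKM in young libraries (SD, n = 5 each). Its relatives in that process were lower, with Ube2g2 at 59.4 ± 5.21 FPKM in aged and 64.4 ± 6.93 FPKM in young libraries and Ube2j2 at 59.0 ± 2.30 FPKM in aged and 61.1 ± 1.74 FPKM in young libraries. Ube2n, which builds lysine-63 chains, stood at 168, 152, 159, 179 and 161 FPKM in the aged libraries and at 171, 153, 147, 167 and 225 FPKM in the young libraries. The value of young replicate 5 was above every other library, and the groups overlapped. Ube2v2, the catalytically inactive partner of Ube2n, averaged 31.3 ± 2.68 FPKM in aged and 31.4 ± 2.11 FPKM in young libraries. Ube2k, which builds lysine-48 chains, averaged 39.2 ± 2.18 FPKM in aged and 36.9 ± 3.23 FPKM in young libraries. Ube2u varied least of all members across the 10 libraries, with a coefficient of variation of 3.24%, at 43.3 ± 1.79 FPKM in aged and 43.3 ± 1.11 FPKM in young libraries. It overlaps Itgb3bp (49.2 FPKM, opposite strand) and Efcab7 (11.8 FPKM, same strand), so its fragments may not all be its own.

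The Rad6 pair, Ube2a and Ube2b, encodes near-identical enzymes that ubiquitinate histone H2B, and male mice without Ube2b are infertile. X-linked Ube2a (chromosome X, 123487002 to 123496841, plus strand) had 37.6, 35.7, 38.7, 33.3 and 40.5 FPKM in the aged libraries and 33.2, 39.1, 34.0, 37.9 and 36.7 FPKM in the young libraries. The groups overlapped over most of their range. Autosomal Ube2b (chromosome 10, 37441284 to 37455022, minus strand) was listed at 0 in 2 aged and 4 young libraries and rested on 1 fragment in each of the others. A second gene that the files describe as ubiquitin-conjugating enzyme E2 B, LOC103694902 on an unplaced contig, had 31.1, 1.82, 1.35, 4.97 and 2.06 FPKM in the aged libraries and 1.54, 1.06, 20.0, 2.16 and 2.07 FPKM in the young libraries. Aged replicate 1 and young replicate 3 stood far above the other libraries, and the groups overlapped. Whether fragments of Ube2b were dropped or assigned to that copy was not tested, so no level of Ube2b can be read from these files. The log2 ratio of Ube2b to Ube2a, with 1 FPKM added to each, therefore mixes the level of Ube2a with 0 or 1 fragment of Ube2b. It was -5.20 ± 0.129 in aged and -5.20 ± 0.128 in young libraries.

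Among the proteases, Usp2 and Usp1 were the most abundant. Usp2, which has a testis form and is needed for full fertility in male mice, had 308, 309.9, 339, 333 and 329 FPKM in the aged libraries and 305, 315, 321, 318 and 342 FPKM in the young libraries. The 2 groups covered almost the same range. Usp1, which removes ubiquitin from the repair proteins PCNA and FANCD2, averaged 255 ± 9.86 FPKM in aged and 266 ± 11.6 FPKM in young libraries (SD, n = 5 each), with every library below the lowest of Usp2. Its partner on the conjugating side, Ube2t, which ubiquitinates FANCD2, averaged 9.55 ± 2.60 FPKM in aged and 11.6 ± 1.17 FPKM in young libraries. Usp7, a nuclear protease that stabilises p53 and its ligase Mdm2, averaged 200 ± 10.8 FPKM in aged and 186 ± 14.2 FPKM in young libraries. Usp50 averaged 162 ± 6.14 FPKM in aged and 164 ± 18.9 FPKM in young libraries, and Usp44, which acts on the spindle checkpoint and on histone H2B, 146 ± 6.91 FPKM in aged and 155 ± 6.95 FPKM in young libraries. Usp7 overlapped Usp50 in range, and Usp50 overlapped Usp44.

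Proteases of endosomes, chromatin and organelles formed the next group. Usp8, which acts on endosomal cargo and is found at the forming acrosome in mouse, averaged 95.2 ± 4.87 FPKM in aged and 101 ± 5.36 FPKM in young libraries (SD, n = 5 each). Usp15, a protease of several signalling pathways, averaged 93.9 ± 4.72 FPKM in aged and 96.4 ± 5.84 FPKM in young libraries. Usp16, which removes ubiquitin from histone H2A, averaged 77.2 ± 4.44 FPKM in aged and 80.5 ± 2.73 FPKM in young libraries, with its end overlapping Cct8 on the opposite strand. Usp22, which removes ubiquitin from histone H2B in the SAGA complex, was much lower. Its values were 1.91, 4.00, 1.41, 2.39 and 2.05 FPKM in the aged libraries and 1.91, 1.69, 1.53, 1.30 and 2.46 FPKM in the young libraries. The highest was aged replicate 2, the library with the highest macrophage, Leydig cell, peritubular and Sertoli cell marker sums, and the groups overlapped. Usp3, another protease of H2A, averaged 2.30 ± 0.434 FPKM in aged and 2.35 ± 0.320 FPKM in young libraries. Usp30, of the mitochondrial outer membrane, averaged 41.5 ± 1.65 FPKM in aged and 40.1 ± 3.65 FPKM in young libraries, and Usp14, which works on the proteasome, 24.6 ± 1.15 FPKM in aged and 26.1 ± 1.70 FPKM in young libraries.

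Usp12, a protease that acts with Wdr48, varied between libraries with a coefficient of variation of 15.8%. It stood at 101, 73.5, 85.3, 106 and 69.3 FPKM in the aged libraries and at 92.7, 76.1, 81.0, 93.3 and 110.2 FPKM in the young libraries. High and low libraries occurred in both groups. The files also list 2 genes under 1 symbol, LOC100912059, described as Usp12-like, at 15.7 ± 1.76 FPKM in aged and 19.7 ± 3.47 FPKM in young libraries and at 6.20 ± 1.29 FPKM in aged and 7.79 ± 1.96 FPKM in young libraries, so fragments of Usp12 may be divided. Genes described as like Usp48 (LOC100911993) and Usp5 (LOC100911959) also fall outside the symbol rule: the first averaged 13.5 ± 0.525 FPKM in aged and 14.8 ± 1.41 FPKM in young libraries and the second 3.26 ± 0.727 FPKM in aged and 3.65 ± 0.932 FPKM in young libraries.

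Members on the sex chromosomes are of interest because these chromosomes are silenced in meiosis and stay largely repressed in spermatids. Of the 8 X-linked members, 6 were tested, and their median level was 25.5 FPKM, against 5.27 FPKM for the 396 tested genes of chromosome X and 28.2 FPKM for the 66 tested members on autosomes. Unlike the members, the 396 genes were not limited to protein-coding genes. Ube2d4l1, Ube2a and Usp11 (36.6 ± 2.74 FPKM in aged and 34.5 ± 2.93 FPKM in young libraries) led them, followed by Usp51, which acts on histone H2A, at 15.7 ± 1.02 FPKM in aged and 15.2 ± 0.832 FPKM in young libraries (SD, n = 5 each). Usp26, an X-linked gene known for its expression in testis, averaged 2.71 ± 0.286 FPKM in aged and 2.64 ± 0.488 FPKM in young libraries. The Y-linked protease Usp9y was above its X-linked homolog Usp9x in every library, by 2.46 to 3.12 times in aged and 2.46 to 3.03 times in young libraries. Usp9y averaged 13.8 ± 0.698 FPKM in aged and 14.7 ± 0.396 FPKM in young libraries, and Usp9x 5.19 ± 0.417 FPKM in aged and 5.24 ± 0.290 FPKM in young libraries. Where the sequences of this pair are alike, fragments may have been divided or dropped. With age, 5 of the 6 tested X-linked members were fitted higher, with a median log2 difference of 0.04, beside 277 of the 396 tested genes of chromosome X with a median of 0.08.

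At the low end, 11 members did not reach the limit for testing: Usp45, Usp31, Ube2q2l, Usp46, Usp43, Ube2l6, Usp27x, Usp18, Usp13, Ube2ql1 and Ube2b. Usp45 lay just under it, at a mean of 0.999 FPKM, and Usp33 just over it, at 1.46 FPKM. Ube2l6 and Usp18 handle ISG15, the interferon-induced modifier. Ube2l6 had 0.459, 0.260, 0.123, 0 and 0.0436 FPKM in the aged libraries and 0.0420, 0.121, 0, 0.0444 and 0.184 FPKM in the young libraries, or at most 12 fragments. Usp18 had 0.0989 to 0.316 FPKM in aged and 0 to 0.135 FPKM in young libraries, or at most 9 fragments. Neither reached the level needed for the main test, and such counts fix a level only loosely. The brain-expressed Ube2ql1 rested on at most 8 fragments in any library. For Usp46, a relative of Usp12, aged replicate 2 had 0.523 FPKM, more than any other library, whose highest was 0.247 FPKM in young replicate 5.

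No member differed between aged and young round spermatids at the threshold. With limma on log2(FPKM + 1) over all 12985 genes, 0 of the 73 tested members and 0% of all genes had an adjusted p under 0.05, and voom on recovered fragments also called 0 members and 0% of all genes. At an unadjusted p under 0.05 there were 6 members (8.22%), against 11.9% of all genes tested, and with voom 10 members, against 11.8% of all genes. Of the 6, Ube2d4l1 was fitted higher in aged libraries, where the share of all genes was 5.54%, and Usp34, Usp42, Usp54, Usp32 and Ube2o lower, where it was 6.35%. With voom 6 of the 10 were fitted higher (Ube2d4l1, Ube2l3, Usp7, Ube2m, Usp25 and Ube2d1) and 4 lower (Usp34, Usp54, Usp42 and Usp32). The shares of all genes in each direction were not counted with voom, so this balance cannot be set against other genes. Voom took depth from the summed recovered fragments. The depth behind the FPKM was 0.966 (young replicate 5) to 1.03 (aged replicate 2) times that sum, and its part in the directions was not tested. The shares at an unadjusted p under 0.05 do not set the members apart from other genes. The count depended on single libraries: it was 2 without young replicate 1, 1 without young replicate 4 and 13 without young replicate 5. The share of all genes at that p was not counted in these fits, so these counts cannot be set against other genes. The median log2 difference was 0.01 for the 31 Ube2 genes, of which 17 were fitted higher, and -0.03 for the 42 Usp genes, of which 14 were fitted higher, beside -0.02 and 45.5% higher for all genes tested.

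**Figure D2:**
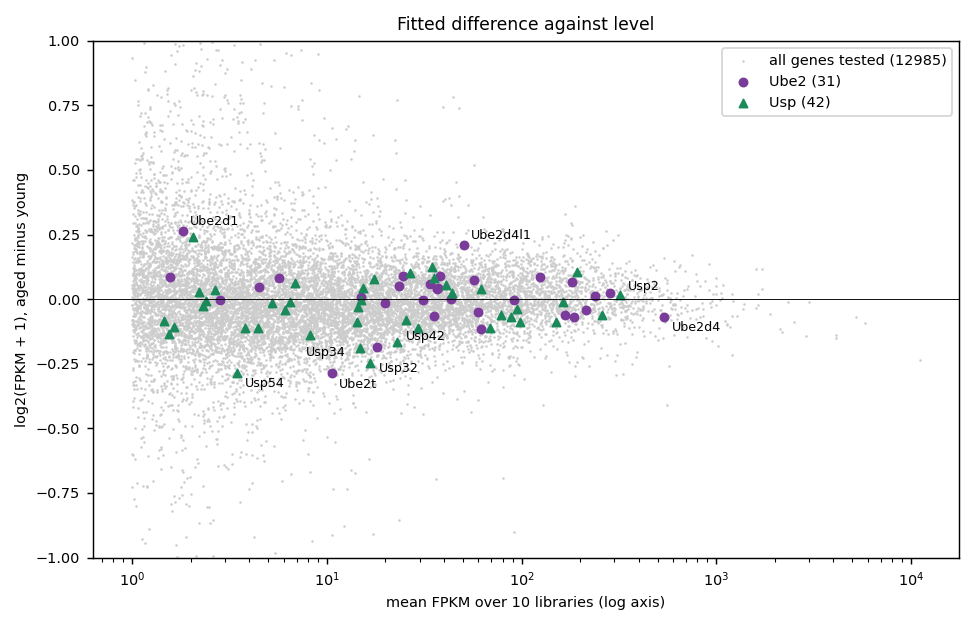
Fitted log2 difference (aged minus young, on log2(FPKM + 1)) against the mean level in FPKM on a log axis for the genes tested, with Ube2 genes as purple circles and Usp genes as green triangles. The 73 tested members lie between -0.29 and 0.26, inside the cloud of all genes (grey), of which 101 fall outside the plotted range of -1 to 1.

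Usp34, a very large protease that acts in Wnt signalling, had the smallest p of the members. It stood at 12.7, 14.6, 13.5, 14.8 and 13.0 FPKM in the aged libraries and at 17.9, 15.2, 15.6, 15.2 and 15.3 FPKM in the young libraries. Every aged value was below every young value, as for 1.24% of all genes tested in that direction, and young replicate 1 was well above the rest. The log2 difference was -0.19 (SE 0.06), with an unadjusted p of 0.0117 and an adjusted p of 0.343 by limma. Over the 20 alternatives run, its unadjusted p was 0.00804 to 0.0406. The files place Usp34 on chromosome 14 from 108143869 to 108264706 on the plus strand.

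The other members at an unadjusted p under 0.05 overlapped between groups. Usp42, a protease abundant in mouse round spermatids, had 21.8, 21.2, 24.0, 21.8 and 19.1 FPKM in aged and 25.0, 24.7, 23.1, 26.5 and 22.3 FPKM in young libraries, a log2 difference of -0.17 (SE 0.07). Usp54 had 3.49, 3.17, 2.38, 3.25 and 2.79 FPKM in aged and 4.56, 3.91, 4.18, 4.06 and 2.83 FPKM in young libraries, a log2 difference of -0.28 (SE 0.11). In both genes young replicate 5 was the lowest of its group and lay within the aged range, and in Usp42 young replicate 3 lay within it too. Usp32 had 12.3, 16.1, 15.0, 16.4 and 15.6 FPKM in aged and 22.3, 18.0, 17.3, 18.4 and 14.7 FPKM in young libraries, a log2 difference of -0.25 (SE 0.10). Ube2o, an enzyme that acts as conjugating enzyme and ligase in one and clears proteins from maturing red cells in mouse, had 15.9, 16.01, 16.2, 19.7 and 16.1 FPKM in aged and 21.9, 18.9, 19.2, 19.7 and 16.6 FPKM in young libraries, a log2 difference of -0.19 (SE 0.08). Young replicate 1 was the highest library for Usp54, Usp32 and Ube2o, and aged replicate 4 reached the young range for Ube2o. Ube2d4l1 had 58.2, 47.8, 51.5, 52.5 and 62.0 FPKM in aged and 42.5, 48.9, 47.9, 41.1 and 54.1 FPKM in young libraries, a log2 difference of 0.21 (SE 0.09). The adjusted p of these 5 genes by limma was 0.384 to 0.409. Without young replicate 1, Usp34 and Ube2d1 were the members at an unadjusted p under 0.05. The share of all genes at that p was not counted in that fit, so it does not set these 2 genes apart.

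Next by p came Usp47, Ube2d1, Ube2l3, Ube2t, Usp44 and Usp53, with adjusted p values of 0.438 to 0.464 by limma. Usp47, a protease of base excision repair, averaged 66.4 ± 3.87 FPKM in aged and 71.7 ± 3.90 FPKM in young libraries, and Usp53 7.70 ± 0.416 FPKM in aged and 8.60 ± 0.886 FPKM in young libraries (SD, n = 5 each). Ube2l3, which serves ligases of the HECT and RBR kind such as parkin, averaged 58.5 ± 1.54 FPKM in aged and 55.5 ± 1.49 FPKM in young libraries, a log2 difference of 0.07 (SE 0.04). Ube2t stood at 7.53, 8.23, 7.31, 13.0 and 11.7 FPKM in the aged libraries and at 13.4, 11.5, 11.6, 11.5 and 10.1 FPKM in the young libraries. Aged replicates 1 to 3 lay below every young library and the other aged replicates within the young range. Ube2e1 varied most among members above 5 FPKM, with 2.90, 6.17, 5.53, 8.76 and 6.78 FPKM in the aged libraries and 5.37, 5.90, 5.40, 5.51 and 4.68 FPKM in the young libraries. The aged libraries held both its lowest and its highest value, on 41 to 112 fragments per library.

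**Figure D3:**
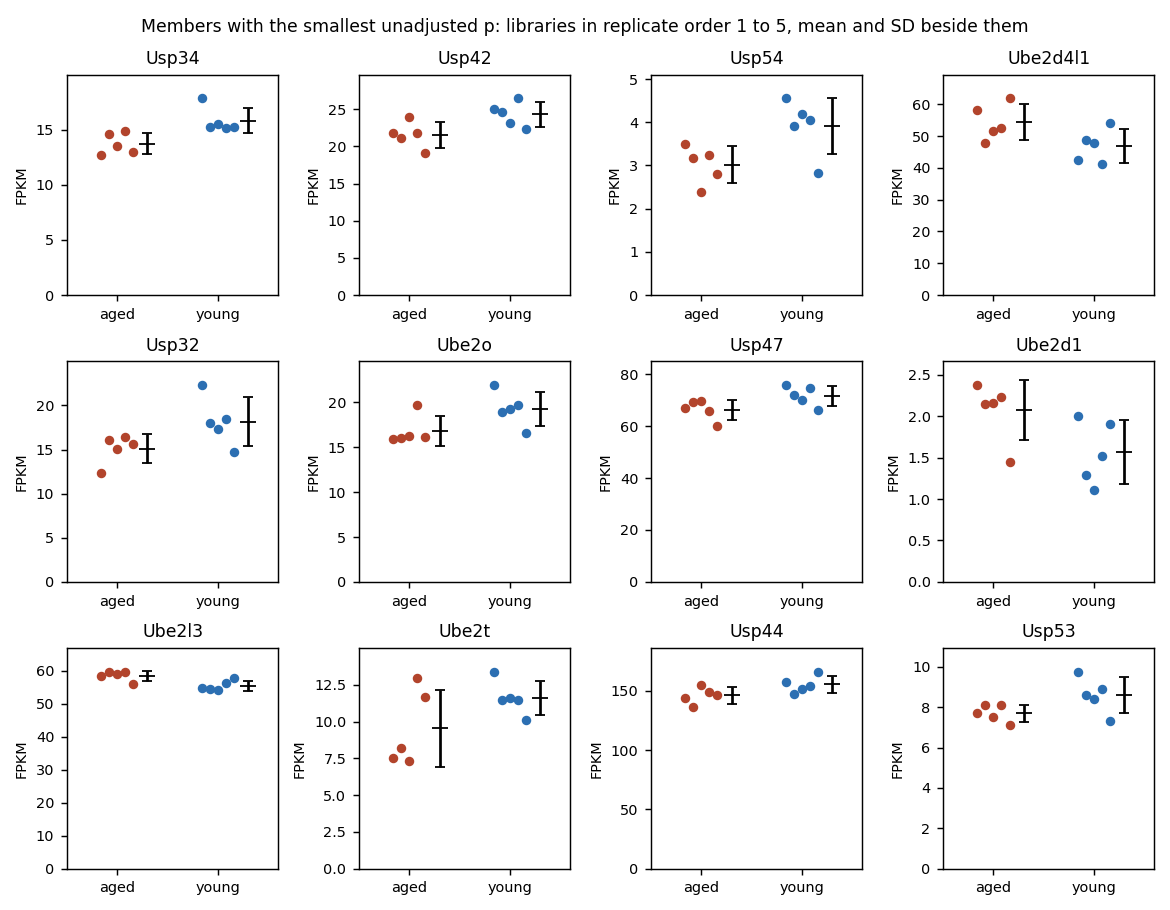
FPKM of the 12 members with the smallest unadjusted p, each on its own axis from 0, with 5 aged libraries (red, left) and 5 young libraries (blue, right) in replicate order and the mean with its SD beside them. Usp34 is the only panel in which no aged point reaches the young points, and young replicate 1 is the highest point for Usp34, Usp54, Usp32, Ube2o, Usp47, Ube2t and Usp53.

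Gene length went along with the direction of the differences. Of the 26 tested members of at least 4000 bp, 20 were fitted lower in aged libraries, with a median log2 difference of -0.07, beside 1314 of 1952 among all genes of that length, with a median of -0.05. Of the 47 shorter members, 22 were fitted lower, with a median of 0.02, beside 5769 of 11033 among all shorter genes and a median of -0.01. Usp34 (9299 bp), Usp32 (7003 bp), Usp54 (6796 bp) and Usp42 (5749 bp) are in the long group, and Ube2o (3935 bp) is just short of it. The part of length in the differences of single members was not tested.

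**Figure D4:**
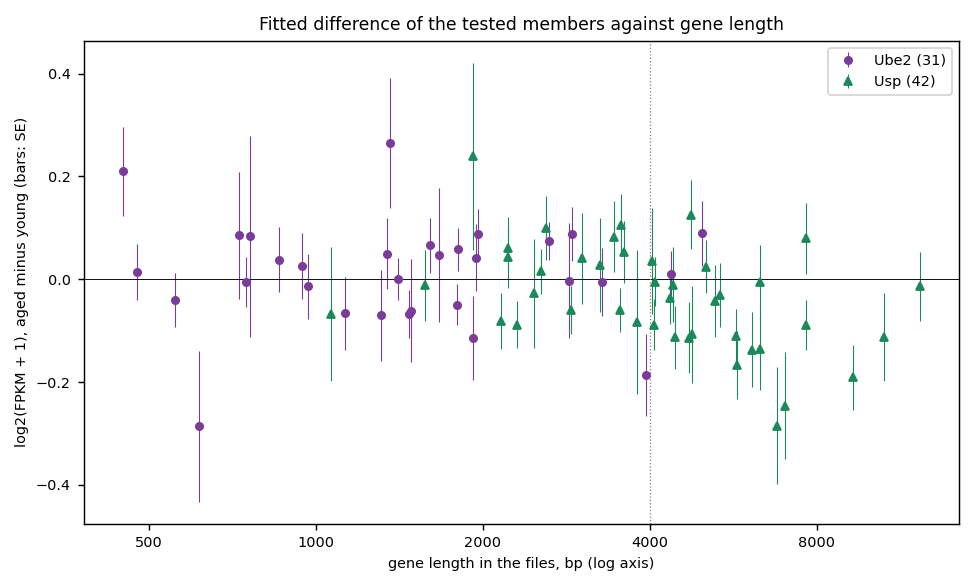
Fitted log2 difference of the 73 tested members (aged minus young, bars are SE) against gene length in bp on a log axis, Ube2 genes as purple circles and Usp genes as green triangles. To the right of the dotted line at 4000 bp, 20 of 26 points lie below 0, and to its left 22 of 47.

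The remaining tested members all had an unadjusted p above that of Usp53. They were Ube2q2, Ube2q1, Ube2g1, Ube2r2, Ube2h, Ube2e3, Ube2e2, Ube2z, Usp35, Usp20, Usp25, Usp19, Usp39, Usp37, Usp4, Usp49, Usp21, Usp38, Usp6nl, Usp28, Usp24, Usp40, Usp10, Usp36, Usp29 and Usp33. Usp25 had the largest fitted value among those above 10 FPKM, at 36.1 ± 2.52 FPKM in aged and 33.1 ± 2.79 FPKM in young libraries (SD, n = 5 each), a log2 difference of 0.13 (SE 0.07). Usp39 is a splicing factor without protease activity and averaged 27.8 ± 1.88 FPKM in aged and 25.9 ± 1.88 FPKM in young libraries. Usp6nl is a GTPase-activating protein that shares the symbol's first letters and no protease function, at 6.00 ± 0.338 FPKM in aged and 6.22 ± 0.556 FPKM in young libraries. Usp29, an imprinted gene, averaged 1.42 ± 0.124 FPKM in aged and 1.66 ± 0.123 FPKM in young libraries.

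The other steps of the pathway gave no adjusted p under 0.05 either, and their counts at an unadjusted p stand beside 11.9% of all genes tested, of which 45.5% were fitted higher. By symbol, 13 of 14 listed modifiers were found, Ubb not among them. So were 38 of 43 listed deubiquitinases of other families and 48 of 54 listed symbols of ligases and partners. Of 12 tested modifier genes, 2 had an unadjusted p under 0.05. Rps27a, a ubiquitin fused to a ribosomal protein, averaged 484 ± 119 FPKM in aged and 630.2 ± 56.0 FPKM in young libraries. Ubl5 averaged 127 ± 8.55 FPKM in aged and 114 ± 9.83 FPKM in young libraries (SD, n = 5 each). Of 9 tested E1 genes, 3 had an unadjusted p under 0.05 and 7 were fitted lower. Nae1, a subunit of the NEDD8 E1, averaged 3.07 ± 0.512 FPKM in aged and 3.95 ± 0.445 FPKM in young libraries, and Uba1, the main ubiquitin E1, 11.0 ± 1.29 FPKM in aged and 8.87 ± 1.39 FPKM in young libraries. Uba1 was thus far below the leading conjugating enzymes in FPKM. Of 33 tested deubiquitinases of other families, 1 was fitted higher (Otulin, 2.75 ± 0.390 FPKM in aged and 2.10 ± 0.374 FPKM in young libraries) and 1 lower (Otud7b, 21.6 ± 0.715 FPKM in aged and 23.2 ± 0.968 FPKM in young libraries) at an unadjusted p under 0.05, while Otud7a averaged 11.0 ± 1.36 FPKM in aged and 9.63 ± 1.16 FPKM in young libraries. Of 47 tested ligases and partners, 2 were fitted higher and 3 lower at that p. Among them, Nedd4 averaged 14.1 ± 2.86 FPKM in aged and 11.1 ± 0.840 FPKM in young libraries. It was highest in aged replicate 2 (19.0 FPKM) and aged replicate 1 (14.4 FPKM), the libraries with the most macrophage and Leydig cell markers. The part of those cells in Nedd4 was not tested. Rnf168, a ligase of histone H2A, averaged 7.29 ± 1.10 FPKM in aged and 9.02 ± 0.835 FPKM in young libraries. The Polycomb ligase Ring1 averaged 26.4 ± 2.15 FPKM in aged and 21.2 ± 1.26 FPKM in young libraries, with no overlap between the groups, as for 1.36% of all genes tested in that direction.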

How the data were processed

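Per the labels' protocols, RNA of round spermatids from 5 aged and 5 young samples was purified on columns and 1.3 ug of total RNA per sample was made into SMARTer mRNA libraries. The authors deposited FPKM values per gene, 1 file per sample; HISAT2 2.0.5 and featureCounts 1.5.0-p3 are listed in the submitters' processing notes. The genome build and the strand setting were not given in the sources available, and coordinates are those of the files except for promoters (GRCr8). Each FPKM value times its gene length was a whole multiple of 1 step per library (100% of values above 0, tolerance 0.001), which gave the fragments used for voom. The value of 1 FPKM over 1 kb stood for 14.6 to 18.6 fragments.

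Groups were compared with limma 3.58.1 (R 4.3.3, eBayes with a trend) on log2(FPKM + 1), a scale that understates changes of low genes, over genes averaging 1 FPKM or more, two-sided, with Benjamini-Hochberg adjustment over all genes tested and a threshold of 0.05. It was tested on simulated data. Members named were the 8 most abundant per family, the 12 with the smallest p, members with a listed role in male germ cells, chromatin, proteasome or membranes, and those whose groups did not overlap; up to 3 genes per pathway list were named by p. Further members and Usp12-like, Usp48-like, Usp5-like and Ube2b-like genes were named after their values were seen. A few genes that the rules would name are not reported here; they stay in the counts and sums. Members and lists were chosen with earlier results of these data known. Same-numbered samples were not paired by the labels. Alternatives were another pseudocount, filters, scalings, voom, robust eBayes, a replicate block and leaving out each sample; leaving out aged replicates 1 and 2 together was added after seeing the data.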

Additional observations from a re-analysis of the deposited data

Results flagged for a closer look

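Of 72 groups of 5 libraries checked among the named members, 4 held a library whose gap to its nearest neighbour was more than 0.71 of the group's range, where chance gives about 1 in 20. Ube2o in aged replicate 4 stood at 19.7 FPKM, against 15.9 to 16.2 FPKM in the other aged libraries. Ube2d1 in aged replicate 5 stood at 1.45 FPKM, against 2.15 to 2.38 FPKM in the other aged libraries. Usp7 in young replicate 1 stood at 161 FPKM, against 188 to 196 FPKM in the other young libraries, and Usp34 in the same library at 17.9 FPKM, against 15.2 to 15.6 FPKM.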

How the results depend on the processing

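No member passed an adjusted p of 0.05 under any of the 20 alternatives run. Members at an unadjusted p under 0.05 numbered 10 with voom instead of 6, and 1 to 13 when single libraries were left out. The share of all genes at that p was 11.8% with voom and 11.9% in the main test. It was not counted in the other alternatives. Genes passing among all tested numbered 0 to 1 when single libraries were left out, with 1 gene, not a member, passing without young replicate 1 and 1 without young replicate 2. The median log2 difference was -0.0148 for Usp genes with no filter on low values, against -0.0331, and ranged from -0.00558 to 0.0363 for Ube2 genes and from -0.0446 to -0.0207 for Usp genes when single libraries were left out. The log2 ratio of Ube2b to Ube2a differed by 0.231 with a pseudocount of 0.1. It differed by -0.0515 to 0.0428 when single libraries were left out. This ratio mixes Ube2a with 0 or 1 fragment of Ube2b per library, and its sign changed with the pseudocount and with single libraries. Since Ube2b has no readable level, the permutation test planned for the ratio is not used. Of the 36 tested members followed through the alternatives, 9 changed sign in at least 1 alternative, and none had an unadjusted p under 0.05 where its sign differed. With voom, Usp50, Ube2u and Usp9x stood at 0.0124, 0.0236 and 0.00590. After TPM scaling Usp50 and Ube2u stood at 0.00219 and 0.0133. Without aged replicates 1 and 2 together, Usp50, Ube2u and Ube2f stood at 0.00952, 0.00630 and 0.00271. When single libraries were left out, the log2 difference ranged over Usp2 -0.00157 to 0.0391, Ube2s -0.0208 to 0.0651, Ube2n -0.114 to 0.0387, Usp50 -0.0473 to 0.0552, Usp12 -0.142 to 0.00856, Ube2u -0.0226 to 0.0167, Usp9x -0.0457 to 0.0207 and Usp26 -0.0126 to 0.0995. The cause was not tested.

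Same-numbered aged and young samples did not deviate together (correlations across genes of -0.158 to 0.0541). With the replicate block 6 members had an unadjusted p under 0.05 and 0 an adjusted one. The share of all genes at that unadjusted p was not counted with the block.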
